A study of Mus musculus with 8 samples.

Results

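The mitochondrial carrier family Slc25 comprises 47 of the 24054 genes in the deposited table, chosen as every gene whose symbol is Slc25a followed by a number. RNA-seq was performed on SOL (soleus, a slow hindlimb muscle) from 4 MI4KO mice and 4 flox mice, all of them male, on the C57BL/6 strain and, per the sample labels, on a high-fat diet. The study's text describes a chow diet for its animals without naming the diet of the sequenced ones, and the labels give no age. MI4KO mice are Irf4 flox/flox mice that carry Cre from the Myl1 locus, which is active in skeletal muscle fibers, and flox mice carry the floxed Irf4 alleles without Cre. Bulk muscle also holds vessels, blood, fat and connective tissue, in which this Cre is not known to act. One library was made per mouse, and within each group mice are called 1 to 4 here in ascending order of label number. Values are CPM, read counts scaled to library size, after a TMM adjustment that brings the bulk of the genes to a common scale. Fold changes were computed by limma on log2(value + 1) and are given as MI4KO minus flox with their standard error (SE).

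Slc25 proteins sit almost all in the inner mitochondrial membrane, which is closed to charged molecules, and each moves 1 kind of cargo or exchanges a pair of them. They export ATP in return for ADP, import phosphate and fatty acids bound to carnitine, and carry the malate, aspartate and glutamate that bring reducing power from the cytosol into the mitochondrion. Other members bring in cofactors, nucleotides, amino acids and iron. Slow muscle is rich in mitochondria, and the carriers for ATP and phosphate are known as abundant proteins there. The comparison asks whether carrier transcripts differ when Irf4 is deleted in the muscle fibers.

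Library depth ranged from 13417512 to 16384565 reads on genes, so that 3 reads, taken as the smallest detected amount, correspond to values of 0.181 to 0.225. Irf4 was at 0.686, 1.46, 1.58 and 1.68 in flox mice 1 to 4 and at 0.725, 0.840, 0.266 and 1.03 in MI4KO mice 1 to 4. The values of Irf4, the gene deleted in muscle fibers, overlapped between the groups in flox mouse 1. Its log2 fold change was -0.45 (SE 0.197, 95% interval -0.88 to -0.024, unadjusted p = 0.0402), and -0.31 (SE 0.188, unadjusted p = 0.119) without MI4KO mouse 3. Without flox mouse 1 it was -0.60 (SE 0.187, unadjusted p = 0.00782). Without both mice, a setting chosen after the data were seen, it was -0.47 (SE 0.167, unadjusted p = 0.0163). No mouse had an Irf4 value above 1.68, and at this low level the pseudocount of 1 makes the fold change too small. All 11 of 11 fiber markers of SOL were well above the detection limit in every mouse, among them Acta1, skeletal muscle actin and the highest, at 32105 to 39858 and Myh7, the slow myosin and the one with the smallest p, at 11079 to 14577, and none differed between the groups past the limits of the study, at least 1.5-fold with an unadjusted p under 0.05. The 20 liver markers, of which 4 were tested and Alb, albumin, was among those at 0 in some mice, summed to 253.4 in flox mouse 1 and to 12.98 to 42.3 in the other 7 mice. Of the 4, Cyp2e1, a drug-metabolizing enzyme, had the smallest p with a log2 fold change of -0.96 (SE 0.370, 95% interval -1.77 to -0.16, unadjusted p = 0.0223), which without flox mouse 1 was -0.47 (SE 0.158, unadjusted p = 0.0123) and no longer past the limits, and Hp, haptoglobin, had the highest mean, with values of 3.05 to 32.8. Of the 15 glucocorticoid response genes, 15 had their highest value in MI4KO mouse 3, where they summed to 4678 against 2559 to 2947 in the other mice. These 2 libraries stand apart, and the fold changes were also computed without them. In bulk muscle, fewer cells of a type and less RNA per cell cannot be told apart.

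Promoter sequences are shown for 4 members: Slc25a4, the carrier with the highest value, Slc25a5, its lower close relative, and Slc25a25 and Slc25a33, which with Slc25a5 are the members whose value in MI4KO mouse 3 stood farthest above that of the next mouse, as a ratio. Each runs 5′ to 3′ on the gene's strand from 250 bases before to 50 bases after a RefSeq start on GRCm38.p6, and capitals mark matches, on either strand, to CCAAT (the CCAAT box), GGGCGG (the GC box) and TGACGTCA (the cyclic AMP response element). The windows are chr8:46211013-46211312 on the minus strand for Slc25a4, chrX:36795347-36795646 on the plus strand for Slc25a5, chr2:32424017-32424316 on the minus strand for Slc25a25 and chr4:149774218-149774517 on the minus strand for Slc25a33. Slc25a25 has 3 such windows, of which the printed one holds the cyclic AMP response element.
Slc25a4: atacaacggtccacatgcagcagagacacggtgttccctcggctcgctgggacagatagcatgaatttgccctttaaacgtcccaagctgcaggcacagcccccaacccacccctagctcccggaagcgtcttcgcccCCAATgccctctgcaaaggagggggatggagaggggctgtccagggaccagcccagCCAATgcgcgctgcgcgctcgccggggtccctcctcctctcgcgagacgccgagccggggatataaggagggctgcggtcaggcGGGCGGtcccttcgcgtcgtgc
Slc25a5: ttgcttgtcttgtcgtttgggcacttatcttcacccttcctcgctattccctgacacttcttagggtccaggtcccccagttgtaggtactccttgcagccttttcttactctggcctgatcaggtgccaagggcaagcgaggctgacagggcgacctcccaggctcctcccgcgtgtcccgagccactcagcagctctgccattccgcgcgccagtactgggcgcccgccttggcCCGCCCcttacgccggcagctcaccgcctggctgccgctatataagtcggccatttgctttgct
Slc25a25: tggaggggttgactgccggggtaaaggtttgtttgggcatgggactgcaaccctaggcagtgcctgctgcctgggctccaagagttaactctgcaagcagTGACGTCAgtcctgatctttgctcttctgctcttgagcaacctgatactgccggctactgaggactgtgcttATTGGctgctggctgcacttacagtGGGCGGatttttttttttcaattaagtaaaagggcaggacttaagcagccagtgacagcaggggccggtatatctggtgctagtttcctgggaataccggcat
Slc25a33: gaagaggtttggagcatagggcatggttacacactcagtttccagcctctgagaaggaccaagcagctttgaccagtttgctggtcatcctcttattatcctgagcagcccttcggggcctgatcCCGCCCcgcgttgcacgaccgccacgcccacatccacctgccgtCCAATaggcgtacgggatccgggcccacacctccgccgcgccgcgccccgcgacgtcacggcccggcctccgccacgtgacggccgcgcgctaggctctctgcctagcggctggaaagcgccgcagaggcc

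A promoter entry was matched for 36 of the 47 members, with 46 windows of 300 bases in all. The GC box was found in 38 of these 46 windows (82.6%), where 35.7% of all 32851 promoter windows of the table hold it. CCAAT was found in 22 of the 46 windows (47.8%), against 37.4% of all windows. The interferon-stimulated response element core, GAAA and GAAA with any 2 bases between, which factors of the IRF family can bind, was found at Slc25a15 and Slc25a22, in 2 of the 46 windows (4.35%) against 3.44% of all windows. TGACGTCA was found at Slc25a25 and Slc25a36, also in 2 of the 46 windows, against 1.79% of all windows. AAGGTCA, the estrogen-related receptor element, was found at Slc25a34 and in 4.72% of all windows. The glucocorticoid response element (GNACA and TGTNC with any 3 bases between) matched no member window and 0.475% of all windows. Both strands were searched for each motif, no motif contains another, and a window was counted once however many matches it held. Windows of 1 gene can overlap, as those of Slc25a14 and Slc25a23 do, so the same site can be counted in more than 1 window. By gene, 30 of the 36 members held the GC box, and a share by gene over the whole table was not computed. A match is a description of the letters in these windows, and the absence of one says only that the letters are not there.

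Of the 47 members, 45 had at least 1 read in some mouse and 38 reached the filter for testing, which asks for 4 or more mice with a value of 1 or higher. Mean values over the 8 mice were above 100 for 6 members, between 10 and 100 for 19, between 1 and 10 for 13 and at most 1 for 9. The family summed to 9066 ± 280.5 (SD, n = 4) in flox mice and to 9234 ± 1000.2 (SD, n = 4) in MI4KO mice, with the highest sum, 10664, in MI4KO mouse 3. As a share of all reads on genes the family took 0.872% to 0.927% in flox mice and 0.894% to 0.979% in MI4KO mice. Slc25a4 alone made up 61.3% ± 0.692 of the family's summed value in flox mice and 61.5% ± 1.27 in MI4KO mice (SD, n = 4 each). Together Slc25a4 and Slc25a3 made up 77.2% ± 0.587 of the sum in flox mice and 77.0% ± 1.09 in MI4KO mice (SD, n = 4 each). SOL thus held a family in which 2 transcripts, those for ADP/ATP exchange and phosphate import, outweighed the rest in every mouse.

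**Figure D1:**
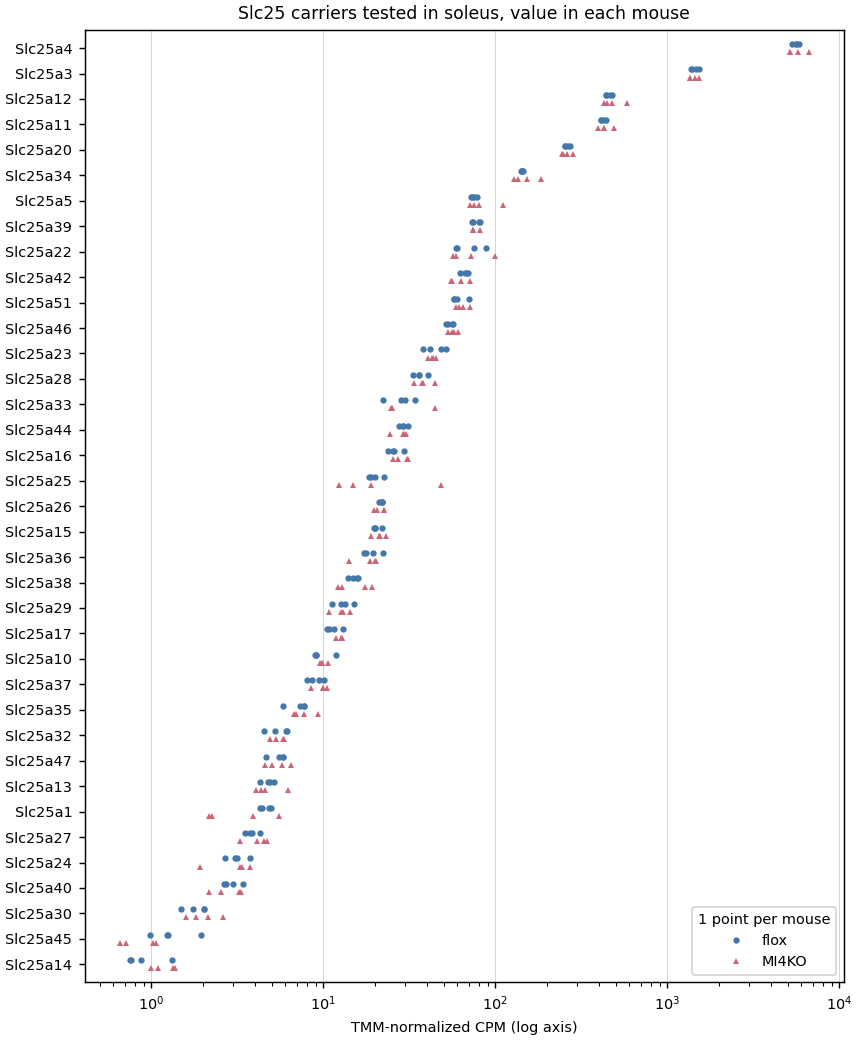
Value of 37 of the tested Slc25 genes in each mouse, as TMM-normalized CPM on a log axis, with circles for the 4 flox mice and triangles for the 4 MI4KO mice. Slc25a4 ranges from 5168 to 6672 and Slc25a14, the lowest by mean, from 0.750 to 1.38, and the points of the groups overlap for every gene.

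Between MI4KO and flox mice, no Slc25 carrier differed past the limits of the study (1.5-fold either way and an unadjusted p under 0.05). The count was 0 of 38 tested members, where 0.219% of all 11865 genes tested passed the limits (limma). With edgeR at the same limits, the paper reports many more changed genes in SOL, and its calls were not compared with these. At an unadjusted p under 0.05 alone the count was also 0 of 38 members, against 3.36% of all genes (limma). No gene in the table reached an adjusted p under 0.05, and the adjusted p of every member was 1.0. edgeR and DESeq2 on the recovered reads also called 0 members by each of these limits. Without MI4KO mouse 4, Slc25a1 alone passed the study's limits, and without both flox mouse 1 and MI4KO mouse 3, a setting chosen after the data were seen, 0 of 37 members did and 1, Slc25a25, had an unadjusted p under 0.05. MI4KO and flox values overlapped for all 38 tested members, where 2.07% of all genes had values that did not overlap. Log2 fold changes of the members ranged from -0.40 for Slc25a1, the citrate carrier, to 0.20 for Slc25a14, an uncoupling protein-like carrier. Both ends depend on the pseudocount, and with 0.25 in place of 1 the range ran from -0.51 for Slc25a45, then -0.48 for Slc25a1, to 0.32 for Slc25a14. Of the 38 members, 22 had a positive log2 fold change, and 43.8% of all genes did. The members' median log2 fold change was 0.015, and the median over all genes tested was -0.015.

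The precision behind these values can be read from their intervals. The standard error of the log2 fold change ranged from 0.0688 to 0.303 over the members, with a median of 0.106 against 0.110 over all genes tested. For 35 of the 38 members the 95% interval lay within a 1.5-fold change either way, as it did for 90.7% of all genes. The 3 members whose intervals reached beyond that were Slc25a1, Slc25a45 and Slc25a25. All these intervals are on log2(value + 1), where the pseudocount of 1 narrows the intervals of members with low values. For a low member such as Slc25a14, at 0.750 to 1.38, an interval within these limits does not exclude a 1.5-fold change. A log2 fold change between -0.1 and 0.1 was found for 31 of the 38 members. A difference smaller than these intervals was not detectable with 4 mice a group.

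**Figure D2:**
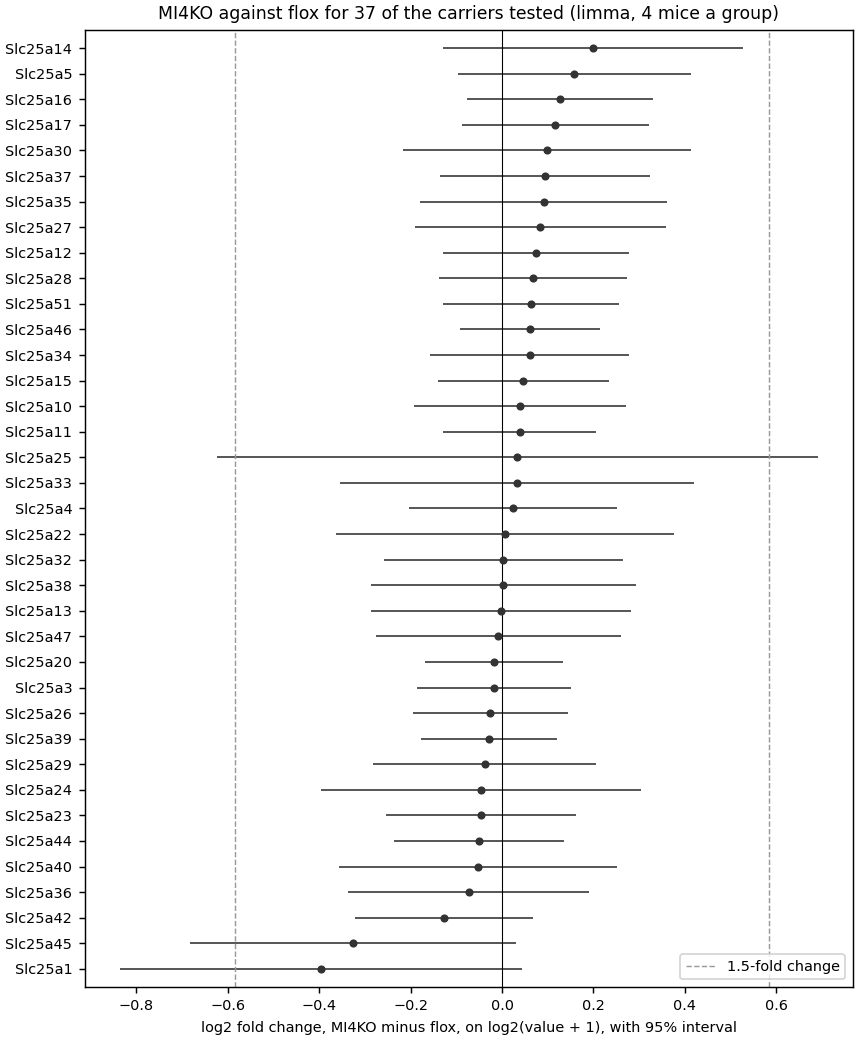
Log2 fold change of MI4KO against flox mice for 37 of the tested Slc25 genes, with the 95% interval from limma as a bar and 1.5-fold changes as dashed lines. Every interval crosses 0, and those of Slc25a1, Slc25a45 and Slc25a25 also cross a dashed line.

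The ADP/ATP carriers exchange the ATP made inside the mitochondrion for ADP from the cytosol. Slc25a4 was at 5311, 5566, 5784 and 5580.4 in flox mice 1 to 4 and at 5722, 5178, 6672 and 5168 in MI4KO mice 1 to 4. This gene (chr8:46206797-46211284 on the minus strand, GENCODE M21 on GRCm38) encodes the isoform typical of heart and skeletal muscle, and its highest and its lowest value both lay in MI4KO mice. Its log2 fold change was 0.025 (SE 0.105, 95% interval -0.20 to 0.25, unadjusted p = 0.818), an interval of 0.868 to 1.19 as a fold. Slc25a5 was at 71.7, 75.1, 77.7 and 72.9 in flox mice 1 to 4 and at 74.9, 70.9, 111 and 80.6 in MI4KO mice 1 to 4. The isoform encoded by Slc25a5 is found in many dividing cell types, and the MI4KO range was wide through MI4KO mouse 3 alone. Its log2 fold change was 0.16 (SE 0.117, 95% interval -0.10 to 0.41, unadjusted p = 0.202), and 0.020 (SE 0.0706, unadjusted p = 0.782) without that mouse. With each library scaled to its column sum instead of by TMM, its log2 fold change was 0.20 (SE 0.0878, unadjusted p = 0.0419). In Slc25a5, 46.6% of the 50-base stretches of its transcripts also occur in transcripts of 9 other annotated genes, so its value is uncertain, since reads may have been divided among these copies. Per kilobase of the longest transcript, the level of Slc25a4 was 45.6 times that of Slc25a5. The third isoform, Slc25a31, known from germ cells, had 1 read in each of 2 flox mice and none in the others.

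Phosphate, the other substrate of ATP synthesis, enters through Slc25a3. Slc25a3 was at 1389.7, 1376, 1531 and 1460.1 in flox mice 1 to 4 and at 1445, 1357, 1533 and 1356 in MI4KO mice 1 to 4. Its values lay within a narrow band in both groups, and the log2 fold change was -0.017 (SE 0.0774, 95% interval -0.19 to 0.15, unadjusted p = 0.827). Per kilobase, the level of Slc25a4 was 3.29 times that of Slc25a3.

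The ATP-Mg/phosphate carriers, whose transport is set by calcium in most of them, adjust the adenine nucleotide content of the mitochondrion. Slc25a23 was the highest of these, at 44.8 ± 6.15 in flox and 43.0 ± 1.98 in MI4KO mice (SD, n = 4 each), and its log2 fold change was -0.047 ± 0.0957 (SE). Slc25a25 was at 19.0, 19.8, 18.3 and 22.5 in flox mice 1 to 4 and at 12.3, 14.9, 48.3 and 18.8 in MI4KO mice 1 to 4. MI4KO mouse 3 was 2.14 times the next mouse and held 726 reads, while MI4KO mice 1 and 2 were the lowest of the 8. Over all mice the log2 fold change of Slc25a25 was 0.033 (SE 0.303, 95% interval -0.62 to 0.69, unadjusted p = 0.914), the widest interval of the family. Without MI4KO mouse 3 it was -0.37 (SE 0.125, unadjusted p = 0.0110), and without both that mouse and flox mouse 1, a setting chosen after the data were seen, -0.39 (SE 0.139, unadjusted p = 0.0157). It was -0.003 without flox mouse 3, the lowest flox mouse, so that the sign changed when either of 2 mice was left out, and of the 8 mice left out singly, MI4KO mouse 3 was the only one that brought the unadjusted p under 0.05. None of these values passed the adjusted limit, and the lowest adjusted p of any member under any alternative was 0.894.

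The third of these carriers, Slc25a24, was at 1.93 to 3.75 over the 8 mice, with 29 to 60 reads per mouse. Slc25a41 had 1 read in 1 flox mouse, although it lies 2056 bases from Slc25a23 on the same strand of chromosome 17. Slc25a54, a neighbor of Slc25a24 on chromosome 3 at a distance of 6461 bases, had no read in any mouse, which allows a value of up to 0.225. In these 2 pairs of neighboring genes from 1 branch of the family, the transcript of 1 gene was thus detected at a far higher value than that of the other.

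**Figure D3:**
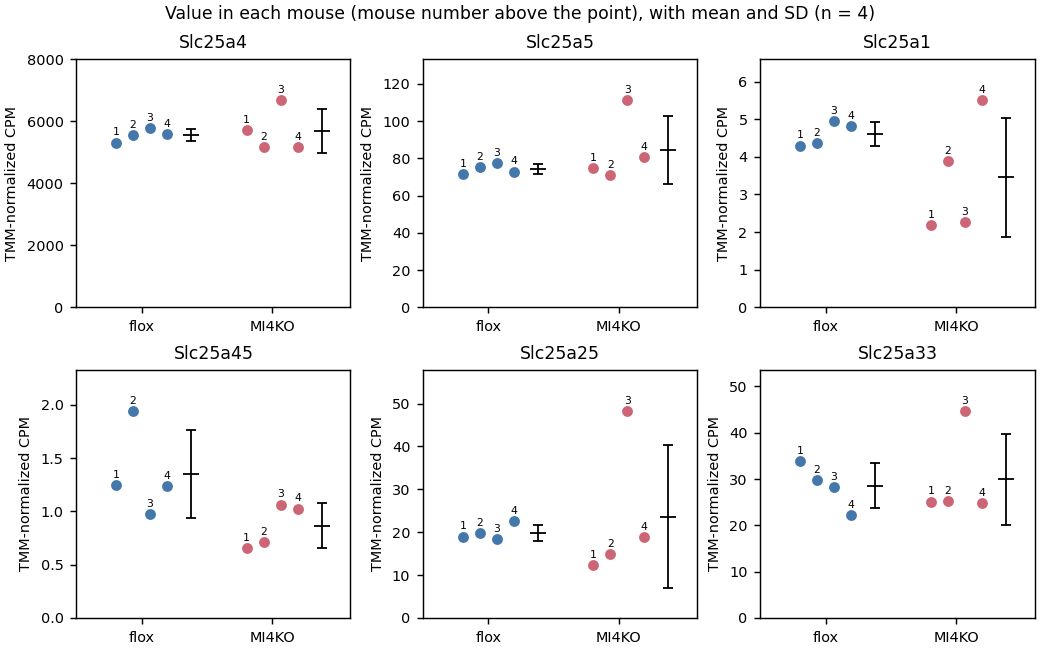
Values of 6 Slc25 genes in each mouse, as TMM-normalized CPM on axes that start at 0, with the mouse number above each point and the mean and SD (n = 4) beside each group. MI4KO mouse 3 stands above the other mice for Slc25a4, Slc25a5, Slc25a25 (48.3) and Slc25a33 (44.7), and MI4KO mice 1 and 3 lie lowest for Slc25a1.

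Among the carboxylate carriers, Slc25a11, which exchanges malate and oxoglutarate in the malate-aspartate shuttle, was the highest. Slc25a11 was at 411, 411, 442 and 428 in flox mice 1 to 4 and at 431, 395, 491 and 425 in MI4KO mice 1 to 4. Its values overlapped widely, with a log2 fold change of 0.038 (SE 0.0771, 95% interval -0.13 to 0.21, unadjusted p = 0.628). Slc25a34 was at 143, 144, 143 and 141 in flox mice 1 to 4 and at 127.7, 136, 185 and 153 in MI4KO mice 1 to 4. Slc25a34 has no firmly assigned cargo, and its 4 flox values lay within 141 to 144 while MI4KO mice lay on both sides of them. Its log2 fold change was 0.060 (SE 0.10, 95% interval -0.16 to 0.28, unadjusted p = 0.557).

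Slc25a1 exports citrate, the carbon source of fatty acid synthesis in the cytosol. Slc25a1 was at 4.30, 4.37, 4.95 and 4.81 in flox mice 1 to 4 and at 2.18, 3.88, 2.26 and 5.50 in MI4KO mice 1 to 4. MI4KO mice 1 and 3 held less than any flox mouse, MI4KO mouse 2 lay just under the flox mice, and MI4KO mouse 4 was the highest of the 8. The log2 fold change of Slc25a1 was -0.40 (SE 0.203, 95% interval -0.84 to 0.044, unadjusted p = 0.0736), with 30 to 91 reads per mouse behind the values, and an exact two-sided permutation test over the 8 mice gave p = 0.257. Without MI4KO mouse 4 it was -0.60 (SE 0.165, unadjusted p = 0.00380), past the limits of the study, and without MI4KO mouse 3 it was -0.27 (SE 0.194, unadjusted p = 0.190).

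Adipoq and Plin1 are given per mouse beside Slc25a1 because their values ran in a similar order, a choice made after the values were seen. Adipoq was at 5.99, 7.56, 7.05 and 6.70 in flox mice 1 to 4 and at 2.18, 6.59, 2.99 and 9.97 in MI4KO mice 1 to 4. Adipoq encodes adiponectin, a hormone of fat cells, and it too was lowest in MI4KO mice 1 and 3 and highest in MI4KO mouse 4. Plin1 was at 4.55, 7.56, 4.50 and 5.17 in flox mice 1 to 4 and at 1.52, 6.14, 1.26 and 7.92 in MI4KO mice 1 to 4. Plin1 coats lipid droplets in fat cells, and MI4KO mice 1 and 3 were again the lowest. Of the 9 fat cell markers none was at 0 in any mouse, 8 were tested, and 1 passed the limits, Cfd, a complement protease of fat cells, with a log2 fold change of -0.65 (SE 0.280, 95% interval -1.25 to -0.037, unadjusted p = 0.0394), and -0.56 (SE 0.286, unadjusted p = 0.0729) without MI4KO mouse 3. For Cfd it was -0.74 (SE 0.309, unadjusted p = 0.0347) without flox mouse 1 and -0.65 (SE 0.310, unadjusted p = 0.0561) without both mice. Of the 9, 7 were lowest in MI4KO mouse 1 and 1, Plin1, in MI4KO mouse 3. Not all fat cell markers were low in MI4KO mouse 3, and Cidea, a lipid droplet protein, and Lipe, the hormone-sensitive lipase, were highest of all 8 mice there, at 28.0 and 76.1. Fabp4, a fatty acid binding protein and the highest of the list, ranged from 169.9 to 263 and was at 224 in that mouse. Of the 8 tested, Cidea at 0.11 ± 0.115 (SE) and Lep, the hormone leptin, at 0.11 ± 0.301 (SE) had positive log2 fold changes and 6 had negative ones. The list summed to 321.1 to 388.9 in flox mice and to 251.4 to 355.7 in MI4KO mice. The part of fat cell content in the values of Slc25a1 was not tested.

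The remaining carboxylate carriers had low values. Slc25a10 was at 9.10, 9.02, 8.93 and 11.9 in flox mice 1 to 4 and at 9.58, 10.6, 9.84 and 9.85 in MI4KO mice 1 to 4. Slc25a10, the dicarboxylate carrier, was set apart in flox mouse 4 and had a log2 fold change of 0.039 ± 0.107 (SE). Slc25a35, without a firmly assigned cargo, was at 5.83 to 9.25 with a log2 fold change of 0.091 ± 0.125 (SE). Slc25a21, the oxodicarboxylate carrier, had 7 reads over all 8 mice.

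The aspartate/glutamate carriers complete the malate-aspartate shuttle. Slc25a12 was at 475, 437, 467 and 437 in flox mice 1 to 4 and at 442, 427, 579 and 476 in MI4KO mice 1 to 4. Slc25a12, the form typical of muscle and brain, had its highest value in MI4KO mouse 3, the other MI4KO mice lay close to the flox range, and the log2 fold change was 0.074 (SE 0.0933, 95% interval -0.13 to 0.28, unadjusted p = 0.440). Slc25a13, the form known from liver, was at 4.05 to 6.24, and per kilobase the level of Slc25a12 was 48.1 times that of Slc25a13. Slc25a22, a glutamate carrier, was at 70.6 ± 14.0 in flox and 71.7 ± 19.6 in MI4KO mice (SD, n = 4 each), with a log2 fold change of 0.006 ± 0.170 (SE). Its relative Slc25a18 had 8 reads in all.

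Of the carriers for other amino acids, 4 were tested and none passed the limits. Slc25a44, which carries branched-chain amino acids, was at 24.4 to 30.9 with a log2 fold change of -0.050 ± 0.0856 (SE). Slc25a15, the ornithine carrier, was at 18.8 to 23.1, and its log2 fold change was 0.047 ± 0.0860 (SE). Its relative Slc25a2 had 5 reads in all mice together. Both differences were smaller than their errors, and the same held for the carriers that follow. For Slc25a38, the glycine carrier needed for heme, the range was 12.2 to 19.2 and the log2 fold change was 0.003 ± 0.133 (SE). For Slc25a29, a carrier of basic amino acids, the range was 10.7 to 15.01 and the log2 fold change was -0.038 ± 0.112 (SE). Slc25a48 had no read in any mouse.

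Fatty acids reach the matrix as acylcarnitines through Slc25a20, the carnitine/acylcarnitine carrier. Slc25a20 was at 252, 254, 273 and 263 in flox mice 1 to 4 and at 246, 244, 282 and 259 in MI4KO mice 1 to 4. The values of Slc25a20 spread by a CV of 5.09% over the 8 mice, and its log2 fold change was -0.017 (SE 0.0697, 95% interval -0.17 to 0.13, unadjusted p = 0.812). Cpt1b, which makes the acylcarnitines at the outer membrane of muscle mitochondria, was at 1061 ± 47.3 in flox and 1020.1 ± 98.6 in MI4KO mice (SD, n = 4 each), with a log2 fold change of -0.061 ± 0.0838 (SE).

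All 10 cofactor carriers were tested, and none passed the limits, with log2 fold changes from -0.13 for Slc25a42 to 0.13 for Slc25a16. Slc25a39 was at 73.4, 79.8, 81.7 and 74.5 in flox mice 1 to 4 and at 74.1, 74.0, 80.8 and 74.3 in MI4KO mice 1 to 4. Slc25a39 imports glutathione, the main small antioxidant of the cell, and while MI4KO mouse 3 stood above the other MI4KO mice it lay inside the flox range. The log2 fold change of Slc25a39 was -0.028 (SE 0.0688, 95% interval -0.18 to 0.12, unadjusted p = 0.687). Slc25a40, its close relative, was at 2.18 to 3.43. Slc25a42 was at 69.5, 62.4, 68.2 and 66.6 in flox mice 1 to 4 and at 54.8, 55.7, 63.0 and 71.5 in MI4KO mice 1 to 4. Slc25a42 carries coenzyme A, and MI4KO mice 1 and 2 were the lowest while MI4KO mouse 4 was the highest of the 8. Its log2 fold change was -0.13 (SE 0.0893, 95% interval -0.32 to 0.067, unadjusted p = 0.180), and -0.20 (SE 0.0804, unadjusted p = 0.0280) without MI4KO mouse 4. Slc25a16 was at 29.4, 25.2, 25.9 and 23.8 in flox mice 1 to 4 and at 30.8, 25.4, 27.1 and 31.0 in MI4KO mice 1 to 4. Slc25a16, also linked to coenzyme A, had MI4KO values on both sides of the flox mean and a log2 fold change of 0.13 (SE 0.0938, 95% interval -0.077 to 0.33, unadjusted p = 0.202).

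Slc25a17 differs from the rest in that it works in peroxisomes, where it carries coenzyme A and related cofactors. Slc25a17 was at 13.03, 11.6, 10.5 and 10.8 in flox mice 1 to 4 and at 12.6, 12.8, 12.8 and 11.8 in MI4KO mice 1 to 4. The lowest 3 mice were flox mice and the highest was flox mouse 1, and the log2 fold change was 0.12 (SE 0.0939, 95% interval -0.087 to 0.32, unadjusted p = 0.237). Slc25a26 was at 21.1, 21.9, 21.8 and 21.9 in flox mice 1 to 4 and at 22.5, 19.8, 22.4 and 20.5 in MI4KO mice 1 to 4. Slc25a26 imports S-adenosylmethionine, the methyl donor, and had the smallest spread of the tested family, a CV of 4.40%. Its log2 fold change was -0.025 ± 0.0782 (SE). Slc25a51, the NAD carrier, ranged from 57.4 to 71.5, with overlap between the groups. Slc25a32, a carrier for folate and flavin cofactors, ranged from 4.50 to 6.17. Slc25a47, a carrier known from liver, was at 5.86 in flox mouse 1, the mouse with the high liver markers. It was at 4.59 to 6.46 in the other mice.

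The pyrimidine nucleotide carriers supply the precursors of mitochondrial RNA and DNA. Slc25a33 was at 33.9, 29.8, 28.3 and 22.2 in flox mice 1 to 4 and at 25.1, 25.1, 44.7 and 24.7 in MI4KO mice 1 to 4. MI4KO mouse 3 was 1.32 times the next mouse, flox mouse 1, and the other MI4KO mice lay inside the flox range. The log2 fold change of Slc25a33 was 0.033 (SE 0.178, 95% interval -0.35 to 0.42, unadjusted p = 0.857), and -0.17 (SE 0.116, unadjusted p = 0.163) without MI4KO mouse 3. Slc25a36, the other pyrimidine nucleotide carrier, was at 14.2 to 22.3 and, unlike Slc25a33, was lowest in MI4KO mouse 3, with a log2 fold change of -0.073 ± 0.121 (SE). In Slc25a36, 11.8% of the 50-base stretches also occur in transcripts of other genes, as do 10.3% of those of Slc25a40 and 8.07% of those of Slc25a37, so these values are uncertain where reads could have been split.

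Iron for heme and iron-sulfur clusters enters through the mitoferrins. Slc25a28, the mitoferrin of most tissues, was at 36.4 ± 3.07 in flox and 38.3 ± 4.44 in MI4KO mice (SD, n = 4 each), with a log2 fold change of 0.068 ± 0.0949 (SE). Slc25a37, the mitoferrin of developing red blood cells, was at 7.98 to 10.4 with a log2 fold change of 0.094 ± 0.106 (SE). Red blood cell markers, of which 6 of 8 were tested, summed to 399.9 to 580.0 in flox mice and to 366.8 to 456.8 in MI4KO mice, and Hba-a1, a hemoglobin chain, had a log2 fold change of -0.28 (SE 0.112, 95% interval -0.52 to -0.034, unadjusted p = 0.0287). Hbb-bt and Hbb-b2, a pair of hemoglobin entries with the same values in every mouse, were counted as 1 marker. Hbb-bs, another hemoglobin chain, was at 0 in some mice. Of the 6 markers tested, 5 had negative log2 fold changes. Hbb-bs went the other way at 1.28, and at 1.89 (SE 0.441, unadjusted p = 0.0008, adjusted p = 0.945) without MI4KO mouse 3. The part of blood content in the values of Slc25a37 was not tested.

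The 3 uncoupling protein-like carriers had low values and positive log2 fold changes, none of them past the limits. Slc25a14 was at 0.873, 0.763, 0.750 and 1.31 in flox mice 1 to 4 and at 1.38, 1.099, 0.997 and 1.33 in MI4KO mice 1 to 4. Slc25a14 had 10 to 22 reads per mouse, with flox mouse 4 inside the MI4KO range. Its log2 fold change was 0.20 (SE 0.151, 95% interval -0.13 to 0.53, unadjusted p = 0.211), and an exact two-sided permutation test gave p = 0.114. At this low level the pseudocount weighs on the value, which was 0.32 with a pseudocount of 0.25 and 0.39 by edgeR. Slc25a27 ranged from 3.26 to 4.72 and Slc25a30 from 1.496 to 2.60.

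Of the carriers that are left, Slc25a46, an outer membrane protein linked to mitochondrial shape, had the highest value, 54.3 ± 2.43 in flox and 56.7 ± 2.91 in MI4KO mice (SD, n = 4 each). Slc25a45 was at 1.25, 1.94, 0.975 and 1.24 in flox mice 1 to 4 and at 0.653, 0.711, 1.06 and 1.03 in MI4KO mice 1 to 4. Only 9 to 28 reads per mouse stand behind the values of Slc25a45, the highest mouse, flox mouse 2, was 1.56 times the next one, and flox mouse 3 lay inside the MI4KO range. Slc25a45 had the smallest p of the family, with a log2 fold change of -0.33 (SE 0.165, 95% interval -0.68 to 0.031, unadjusted p = 0.0699), and an exact two-sided permutation test gave p = 0.0857. It was -0.21 (SE 0.163, unadjusted p = 0.218) without flox mouse 2 and -0.40 (SE 0.175, unadjusted p = 0.0404) without flox mouse 3. With a pseudocount of 0.25 it was -0.51 (SE 0.256, unadjusted p = 0.0690), and by edgeR -0.63. Slc25a53 had 1 to 6 reads per mouse, and Slc25a43 had 4 reads in all, although it lies 18448 bases from Slc25a5 on the X chromosome.

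Levels can be compared between genes only per length, here per kilobase of the longest annotated transcript, as the mean ± SD over the 8 mice. On that scale Slc25a4 was at 2921 ± 252, Slc25a3 at 888 ± 45.3, Slc25a11 at 251 ± 17.0 and Slc25a20 at 145 ± 7.40, each apart from the next by more than its spread. Slc25a12 at 73.6 ± 7.70, Slc25a5 at 64.0 ± 10.6 and Slc25a34 at 54.9 ± 6.41 followed, with SDs over the mice that overlap. Within each mouse their order was the same, with Slc25a12 at 1.02 to 1.29 times Slc25a5 and Slc25a5 at 1.08 to 1.29 times Slc25a34, each in 8 of 8 mice. In all, 17 members reached 10 per kilobase. The length used matters for some genes, and with the median length of the coding transcripts the level of Slc25a11 was 557 and that of Slc25a22 122.1 in place of 25.3.

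Many members had their highest value in the same mouse. MI4KO mouse 3 had the highest value for 17 of the 38 tested members (44.7%), where it was the highest mouse for 30.9% of all genes tested, and it was the lowest mouse for 3 members. The 6 members with the highest mean values, Slc25a4, Slc25a3, Slc25a12, Slc25a11, Slc25a20 and Slc25a34, were all highest in that mouse. Its lead over the next mouse was only 1.001-fold for Slc25a3 and 1.03-fold for Slc25a20. The sum of the TMM-normalized values over all genes was also the largest in MI4KO mouse 3. Only 2 tested members had a highest mouse above 1.5 times the next, Slc25a25 in MI4KO mouse 3 and Slc25a45 in flox mouse 2, and 2.11% of all genes tested had such a mouse. In MI4KO mouse 3 alone, 1.55% of all genes tested stood out in this way. The glucocorticoid response genes, none at 0 in any mouse, moved with MI4KO mouse 3, and Mt1, a metallothionein and the one with the smallest p, had a log2 fold change of 0.75 (SE 0.549, 95% interval -0.44 to 1.94, unadjusted p = 0.197), and -0.023 (SE 0.129, unadjusted p = 0.860) without that mouse. Pdk4, an inhibitor of pyruvate oxidation and the highest of these, ranged from 1562 to 2469.8, while Fkbp5, a chaperone of the receptor complex, was at 159 in that mouse and at 19.4 to 31.2 in the others. Without MI4KO mouse 3, Pdk4 alone of these genes had a positive log2 fold change, 0.026 (SE 0.0801, unadjusted p = 0.747). Per1 then had the smallest p, at -0.44 (SE 0.165, unadjusted p = 0.0188, adjusted p = 0.970). The part of the glucocorticoid response genes in the values of Slc25a25, Slc25a33 and Slc25a5 was not tested. Without MI4KO mouse 3 the members' median log2 fold change was -0.020 and the median over all genes was -0.042.

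**Figure D4:**
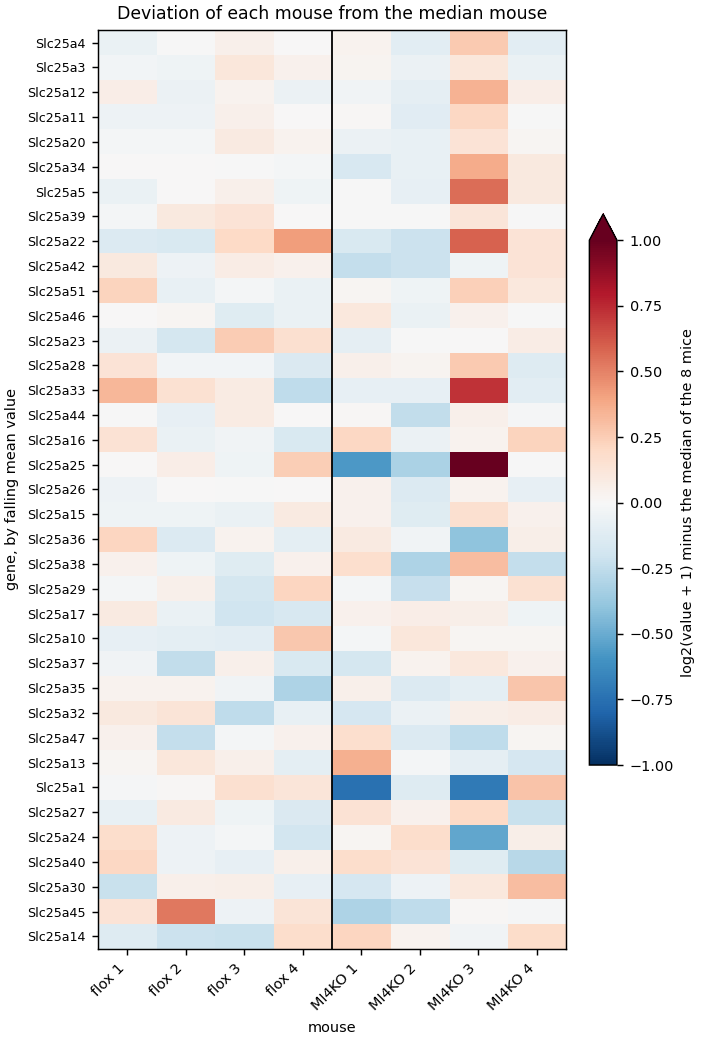
Deviation of each mouse from the median of the 8 mice on the log2(value + 1) scale, for 37 of the tested Slc25 genes in order of falling mean value, with red above and blue below the median and the line between flox and MI4KO mice. MI4KO mouse 3 is red for most of the upper rows, with Slc25a25 past the end of the color scale, and neither group has 1 color throughout.

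Other genes that act beside the carriers were described by lists. Family members with other symbols are the uncoupling proteins Ucp1, Ucp2 and Ucp3 and the outer membrane proteins Mtch1 and Mtch2, and 0 of the 4 tested passed the limits. Mtch2 was at 166 ± 10.3 in flox and 174 ± 7.65 in MI4KO mice (SD, n = 4 each), with a log2 fold change of 0.066 ± 0.0692 (SE). Ucp3, the muscle form, ranged from 102 to 227 and was highest in MI4KO mouse 3. Its log2 fold change was -0.025 (SE 0.191, unadjusted p = 0.897). Without that mouse it was -0.26 (SE 0.0971, unadjusted p = 0.0169, adjusted p = 0.970), and without flox mouse 1 -0.043 (SE 0.216, unadjusted p = 0.847). Ucp1, the form of brown fat, was not above 0.0604 in any mouse. Among the 12 genes of the machinery that imports carrier proteins into the inner membrane, 0 passed the limits, and the smallest p was that of Tomm22, a receptor subunit of the outer membrane, with a log2 fold change of 0.11 (SE 0.0708, 95% interval -0.044 to 0.26, unadjusted p = 0.147). Tomm20, another receptor and the highest of these, ranged from 157 to 193.

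Of 16 other channels and carriers of the mitochondrial membranes, 0 passed the limits. Sfxn2, of the sideroflexin family, had the smallest p of these, with a log2 fold change of -0.31 (SE 0.185, 95% interval -0.71 to 0.091, unadjusted p = 0.118). Vdac1, the main pore of the outer membrane, was at 1486 ± 79.4 in flox and 1562 ± 169 in MI4KO mice (SD, n = 4 each), with a log2 fold change of 0.068 ± 0.0906 (SE). Of 19 enzymes that hand cargo to the carriers or take it from them, 0 passed the limits, and Fech, the last enzyme of heme synthesis, had the smallest p with a log2 fold change of 0.077 (SE 0.0701, 95% interval -0.075 to 0.23, unadjusted p = 0.293). Ckmt2, the mitochondrial creatine kinase of muscle that uses the exported ATP, was the highest of them at 2864 to 3453. The medians of the log2 fold changes were -0.022 for the family members with other symbols, 0.014 for carrier import, -0.009 for the other channels and 0.005 for the enzymes, beside -0.015 for all genes tested.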

How the data were processed

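The authors made Kapa Stranded mRNA libraries and ran single 50-base reads, which were aligned with Bowtie2 2.1.0 to UCSC transcripts and quantified with RSEM 1.2.15, and per the labels the build is mm10. Each deposited signal value is a TMM-normalized CPM, whose sum differs between mice. The deposited table also holds the authors' fold-change score and their p-value and FDR columns, which were not used. Read counts were recovered by dividing values by the step of each mouse, and 100% of non-zero values came out whole within 0.05 reads. Detection floors cover counting error only, as reads carry no molecular identifiers.

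The groups were taken from the sample titles. limma 3.58.1 (R 4.3.3) with a mean-variance trend was fitted to log2(value + 1) for the 11865 genes that reached a value of 1 in 4 or more of the 8 mice, with Benjamini-Hochberg adjustment over all of them, after it was tested on simulated data. The pseudocount of 1 makes the fold changes of low genes too small and their intervals too narrow. The p-values and 95% intervals of limma set the group difference against the spread between mice, with each gene's variance moderated by that of all genes tested. Alternatives were a pseudocount of 0.25, no filter, median-of-ratios and column-sum scaling, limma without the trend, limma with robust estimation, mouse number range as a covariate, edgeR 4.0.16 and DESeq2 1.42.0 on recovered reads, and each mouse left out. Values per mouse are given for the 8 highest members, those with the 6 smallest p, those with a mouse over 1.5 times the next and those with a mouse set apart, and of each other list for the genes with the smallest p and the highest value. Adipoq, Plin1, Cidea, Lipe, Lep, Fkbp5, Per1, Cpt1b, Ucp1, Ucp3, Hbb-bs, Hbb-bt, Hbb-b2 and Alb were named outside this rule, after their values were seen. The members and lists were chosen with earlier results of these data known. Positions are from GENCODE M21 on GRCm38, and promoters from RefSeq on GRCm38.p6. Values of 1 tested member and 1 marker are not reported here, and both stay in the counts over members and lists, apart from the counts of sign changes. Gastrocnemius samples were not analysed here.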

Additional observations from a re-analysis of the deposited data

Results flagged for a closer look

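In 5 of 76 groups of 4 mice (each of the 38 tested members in each genotype), 1 mouse lay far from the other 3, measured as its gap to the nearest mouse over the whole range of the group. Chance gives about 1 in 20 groups, so 5 of 76 is near that share. Slc25a39, the glutathione carrier, was at 80.8 in MI4KO mouse 3, the highest of its group (gap 0.962), and Slc25a33, a pyrimidine nucleotide carrier, was at 44.7 in the same mouse (gap 0.971). Slc25a26, the S-adenosylmethionine carrier, was lowest in flox mouse 1 at 21.1 (gap 0.888), in a group whose other values were within 21.8 to 21.9. Slc25a17, the peroxisomal cofactor carrier, was lowest in MI4KO mouse 4 at 11.8 (gap 0.830), and Slc25a10, the dicarboxylate carrier, was highest in flox mouse 4 at 11.9 (gap 0.933).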

How the results depend on the processing

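No member had an adjusted p under 0.05 in any of the 18 alternatives, the lowest adjusted p being 0.894. The count of members at an unadjusted p under 0.05, 0 as reported, was 1 without a filter on low values and 1 in limma without the trend, each time Slc25a45, 1 with scaling to the column sum, Slc25a5, and 1 without both flox mouse 1 and MI4KO mouse 3, Slc25a25, the last being an alternative chosen after seeing the data. Leaving out 1 mouse at a time gave counts of 0 to 2 at this limit and of 0 to 1 past the study's limits, the 1 being Slc25a1 without MI4KO mouse 4, and the members' median log2 fold change ranged from -0.020 to 0.067. Among all genes, 26 passed the study's limits in the limma fit used above and 60 with a pseudocount of 0.25. The count was 65 in edgeR, 51 in DESeq2, 13 with robust estimation and 57 without MI4KO mouse 4. The paper's own count for SOL is higher than each of these. Of 661 alternative values of the reported members' log2 fold changes, 77 had the other sign, in 23 genes, and the cause was not tested. Without both flox mouse 1 and MI4KO mouse 3 the other sign was seen at -0.077 for Slc25a4, -0.035 for Slc25a11, -0.042 for Slc25a34, -0.23 for Slc25a22, -0.086 for Slc25a33, -0.39 for Slc25a25, -0.0055 for Slc25a15, 0.11 for Slc25a36, -0.086 for Slc25a38, 0.088 for Slc25a47, 0.032 for Slc25a13, 0.17 for Slc25a24 and 0.041 for Slc25a40. With median-of-ratios scaling the other sign was seen at 0.0034 for Slc25a3, 0.0036 for Slc25a20, 0.010 for Slc25a47 and 0.014 for Slc25a13. With scaling to the column sum the other sign was seen at 0.027 for Slc25a3, 0.027 for Slc25a20, 0.015 for Slc25a39, 0.017 for Slc25a26, 0.0031 for Slc25a29, 0.031 for Slc25a47 and 0.034 for Slc25a13. By DESeq2 on recovered reads the other sign was seen at 0.0012 for Slc25a3, 0.0021 for Slc25a20, 0.015 for Slc25a47 and 0.025 for Slc25a13. With the number range as a covariate the other sign was seen at 0.0099 for Slc25a20. By edgeR's quasi-likelihood test on recovered reads the other sign was seen at 0.013 for Slc25a47 and 0.022 for Slc25a13. Over the 8 fits that each left out 1 mouse it ranged from -0.055 to 0.068 for Slc25a4, -0.054 to 0.013 for Slc25a3, -0.018 to 0.13 for Slc25a12, -0.021 to 0.084 for Slc25a11, -0.061 to 0.0090 for Slc25a20, -0.043 to 0.13 for Slc25a34, -0.16 to 0.12 for Slc25a22, -0.12 to 0.022 for Slc25a23, -0.0021 to 0.13 for Slc25a28, -0.17 to 0.12 for Slc25a33, -0.084 to 0.016 for Slc25a44, -0.37 to 0.26 for Slc25a25, -0.051 to 0.0079 for Slc25a26, -0.13 to 0.038 for Slc25a36, -0.11 to 0.10 for Slc25a38, -0.10 to 0.033 for Slc25a29, -0.074 to 0.054 for Slc25a32, -0.080 to 0.059 for Slc25a47, -0.11 to 0.059 for Slc25a13, -0.13 to 0.11 for Slc25a24 and -0.12 to 0.033 for Slc25a40. The other 14 reported members kept their sign in every alternative in which they were tested. Scaling moved the median over all genes from -0.015 to 0.004 with median-of-ratios factors and to 0.026 with column sums. The members' median moved from 0.015 to 0.036 and to 0.059 in these 2 settings. No paired analysis was possible because the labels give each mouse its own number and no pairing between the groups. Depth limits the members under 30 reads per mouse, Slc25a14, Slc25a45, and the 9 untested ones most.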
